A study of Mus musculus with 2 samples.

Results

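Resident macrophages are the tissue phagocytes that settle in embryonic organs, and the genes described here are those commonly used to mark them. The set holds 10 genes: Csf1r, Cd68, Adgre1, Lyz2, C1qa, C1qb, C1qc, Cx3cr1, Mrc1 and Tyrobp. They were taken by gene name from the array annotation, which gave 16 of the 39429 probes on the design; all 16 were among the 29645 probes kept after a filter on dim signal. Ureters of wild-type NMRI mouse embryos of both sexes were dissected at E13.75 (days after conception) and cultured on membranes for 18 h, either without an addition or with 10 µg/ml NOGGIN, an extracellular antagonist of the bone morphogenetic protein (BMP) ligands. The organ was cultured whole, so each sample mixes epithelium, mesenchyme and whatever blood-derived cells the explant still held. Each of 2 arrays compared the total RNA of 1 control and 1 NOGGIN sample in different dyes, with NOGGIN in the green channel of array 1 and in the red channel of array 2. Nothing in the labels ties the pairs to separate litters, so p-values measure the spread between these samples, which may be technical.

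Macrophage survival depends on CSF1R, the receptor tyrosine kinase for the cytokines CSF1 and IL-34. Embryonic tissue macrophages also carry the fractalkine receptor CX3CR1, the mannose receptor MRC1 and the adhesion receptor ADGRE1, and they make the chains of complement C1q. In bulk RNA such as this, fewer macrophages and less transcript per macrophage cannot be told apart.

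The sources left the sign of the ratios unsettled. Each value below is a log2 ratio of NOGGIN over control as the dye labels assign the channels, and "NOGGIN" and "control" stand for those labelled channels. With this sign the BMP target genes Id1, Id2 and Id3 had mean log2 ratios of 2.14, 2.59 and 1.45. Nog, Smad6 and Smad7, the rest of a list of 6 BMP targets, had 0.89, 0.95 and 0.78. All 6 had positive ratios on each array. An antagonist of BMP ligands should lower such genes, so the sign used here is the opposite of what NOGGIN should give. The authors' deposited table carries the other sign for the same probe, -4.65 and -4.53 as signed folds for Id1 on arrays 1 and 2. The dye assignment itself was not tested. Were the dyes the other way round, all signs below would turn and the sizes stay.

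Each probe is a 60-base oligonucleotide printed as 4 spots. The sequences below, taken from the annotation in the scanner files (mouse build mm9), are those behind the C1q, Tyrobp, Lyz2 and Adgre1 values, and they show which stretch of each transcript was read. Capitals in the Lyz2 probe mark a run of 16 bases that a probe for another gene, Angpt2, also holds; none of the other 15 probes of the set shared a run of 15 or more bases with a probe of another gene. Exon and UTR annotation of this build was not used here.
Lyz2, chr10:116719175-116719234, minus strand: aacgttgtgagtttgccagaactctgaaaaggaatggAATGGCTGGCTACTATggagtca
Adgre1, chr17:57620350-57620409, plus strand: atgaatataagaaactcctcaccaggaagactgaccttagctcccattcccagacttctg
C1qa, chr4:136452409-136452468, minus strand: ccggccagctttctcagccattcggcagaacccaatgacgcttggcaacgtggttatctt
C1qb, chr4:136436578-136436637, minus strand: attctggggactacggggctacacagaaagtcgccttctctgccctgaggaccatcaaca
Tyrobp, chr7:31200651-31202378, plus strand: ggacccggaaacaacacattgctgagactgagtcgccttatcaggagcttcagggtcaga
The Tyrobp positions span more than the probe's length because the file gives the outer ends of a probe that matches separate blocks of the genome. Csf1r and Cx3cr1 were read by 3 probes each and Cd68 and Adgre1 by 2 each; these probes are named below by the base of the transcript at which they start. The Cx3cr1 probes starting at bases 3683 and 3688 share a run of 55 bases, so they are nearly the same measurement (chr9:119957806-119957865 for the second, minus strand).

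All 16 probes were well above background in both channels of both arrays, in every spot that was used. Each of the 10 markers thus gave a signal in both conditions, next to genes of the ureter's urothelium (7 of 7 kept) and mesenchyme (5 of 5 kept). Over the whole design, 25345 of 39429 probes had most spots above background in both channels of both arrays. Such a signal therefore does not by itself bear out the label of the set. No marker passed the test for a difference between conditions. In limma's moderated test, adjusted by Benjamini-Hochberg over the 29645 probes, 0 of 16 member probes had an adjusted p under 0.05, as had 0% of all probes, and 1 had an unadjusted p under 0.05 (5.34% of all probes). By a rule of size, a ratio of 1.5-fold or more with 1 sign on both arrays, 0 of 16 passed, against 1.92% of all kept probes. By sign alone, 9 probes were below 0 on both arrays (22.1% of all), 1 was above 0 on both (21.2%) and 6 had opposite signs (56.7%). With the brightest probe taken for each gene, the median log2 ratio over the 10 genes was -0.23, with -0.09 on array 1 and -0.36 on array 2, beside -0.01 over all 22316 genes. Of the 10 genes, 7 were below 0 on both arrays, where 23.3% of all genes were. Adgre1 alone was above 0 on both (20.4% of all genes), and Lyz2 and Cx3cr1 had opposite signs (56.3%).

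**Figure D1:**
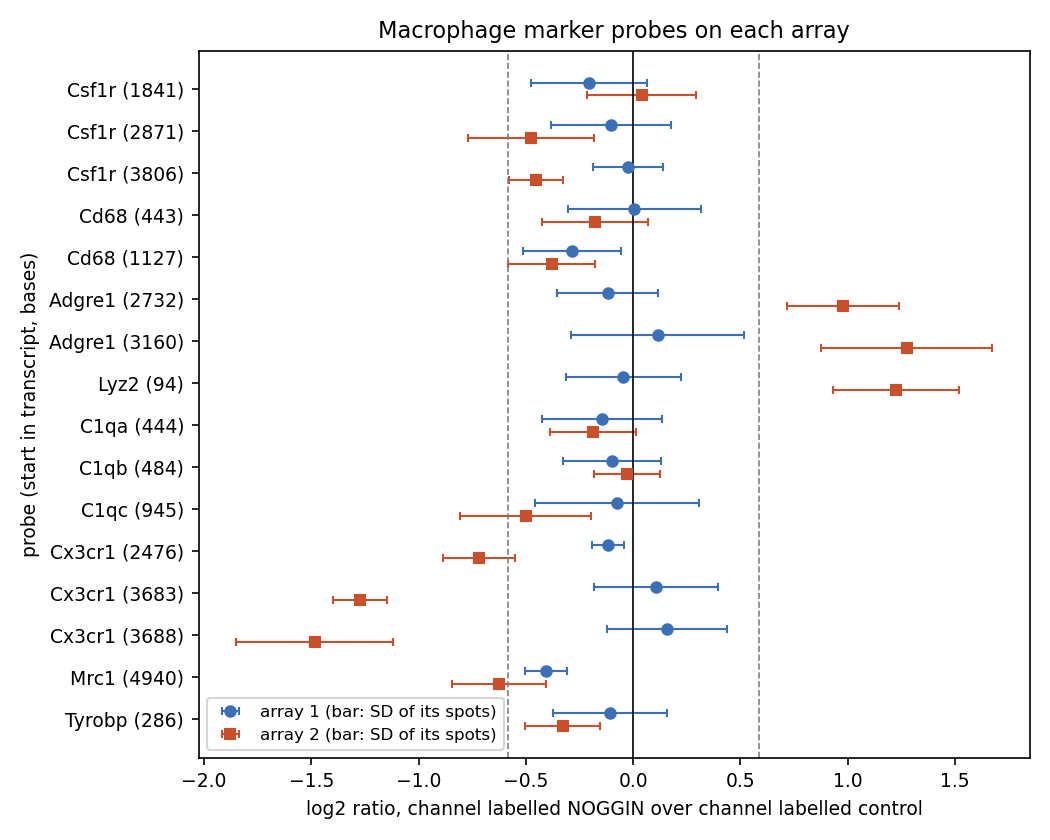
Log2 ratio of NOGGIN over control, by the dye labels, for the 16 probes, on array 1 (circles) and array 2 (squares); bars are the SD of the spots of a probe within 1 array and dashed lines mark 1.5-fold. Array 1 ratios lie between -0.41 and 0.16, while array 2 ratios run from -1.48 for a Cx3cr1 probe to 1.27 for an Adgre1 probe.

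The spread differed between the arrays. On array 1 the 16 ratios ran from -0.41 to 0.16, and 0 of them reached 1.5-fold either way (3.96% of all kept probes did). On array 2 they ran from -1.48 to 1.27, and 7 reached 1.5-fold (12.8% of all kept probes): 3 were higher in the channel labelled NOGGIN (7.62% of all) and 4 were lower (5.17% of all). Adgre1 and Lyz2 supplied the higher ones, and Cx3cr1 and Mrc1 the lower ones. Each array carries 1 dye orientation and 1 pair of cultures, so dye and culture cannot be told apart in this difference.

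Csf1r, the receptor on which macrophages depend, had levels that hardly differed between channels on array 1. Its brightest probe, starting at base 3806, gave log2 intensities of 11.70 in control and 11.68 in NOGGIN on array 1, and 12.19 and 11.74 on array 2. The log2 ratios were -0.02 and -0.45, with a mean of -0.24 ± 0.30 (SD, n = 2) and a 95% interval from limma's fit of -0.71 to 0.24. The probe at base 2871 behaved alike, with -0.10 and -0.48, whereas the probe at base 1841 had -0.21 and 0.04. The ligands of the receptor were measured too, and neither reached 1.5-fold on either array: Csf1 had -0.45 on array 1 and 0.04 on array 2, and Il34 had -0.14 and -0.10.

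Tyrobp encodes DAP12, the adaptor that passes signals from many activating receptors of myeloid cells. It had log2 intensities of 11.64 in control and 11.53 in NOGGIN on array 1, and 12.12 and 11.79 on array 2. The channel labelled NOGGIN was the lower one both times, by log2 ratios of -0.11 and -0.33 (mean -0.22 ± 0.16, SD, n = 2), and the 95% interval of -0.65 to 0.21 holds 0. Of 7 genes for DAP12 partners and relatives, 5 were kept, and 0 reached 1.5-fold on both arrays (2.19% of all genes did). Trem2, a lipid-sensing receptor that signals through DAP12, had -0.03 on array 1 and -0.87 on array 2. Clec5a and Sirpb1a were not kept, since their signal was near background.

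Cd68, a glycoprotein of macrophage lysosomes, was slightly lower in NOGGIN on both arrays by its brightest probe. That probe, starting at base 1127 (chr11:69477775-69477834, mm9, minus strand), had log2 intensities of 11.60 in control and 11.31 in NOGGIN on array 1, and 11.76 and 11.38 on array 2. Its log2 ratios were close on the arrays, -0.28 and -0.38 (mean -0.33 ± 0.07, SD, n = 2), with a 95% interval of -0.75 to 0.09. The probe at base 443 is annotated to another transcript of the gene and had 0.01 and -0.18.

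The 3 C1q chains are encoded side by side on chromosome 4 and are joined in 1 protein that starts the classical complement pathway. C1qa had log2 intensities of 9.56 in control and 9.41 in NOGGIN on array 1, and 9.87 and 9.68 on array 2. C1qb had 10.10 and 10.00 on array 1, and 10.51 and 10.48 on array 2. C1qc (chr4:136445766-136445825, mm9, minus strand) had 11.31 and 11.24 on array 1, and 11.92 and 11.42 on array 2. All 3 were below control on both arrays by small amounts, with mean log2 ratios of -0.17 ± 0.03, -0.06 ± 0.05 and -0.29 ± 0.30 (SD, n = 2). The 95% intervals, -0.58 to 0.25, -0.48 to 0.35 and -0.76 to 0.19, leave room for a loss of up to 0.76 on the log2 scale and for a gain of up to 0.35.

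Other complement genes had a wider range than the C1q chains, and a difference between these groups was not tested. Of 10 genes measured, among them proteases, C3 and regulators that epithelium and mesenchyme also make, 0 passed the 1.5-fold rule on both arrays and 6 were at least 1.5-fold higher on array 2, where 6.15% of all genes were. Their median log2 ratio was 0.10 on array 1 and 1.07 on array 2. C1ra and C1s1, the proteases that C1q activates, had 0.09 and 0.30 on array 1 and 1.35 and 1.21 on array 2. C3, the central component, had -0.18 and 1.92 (mean 0.87), and its other kept probe had a mean of 0.33. The C1 inhibitor gene Serping1 lay on the other side, with -0.74 and -0.39, as did the receptor gene C5ar1, with -0.22 and -0.67. Some complement genes were dim on array 1, among them C3 and C2, with log2 intensities of 7.67 and 7.69 in control. Cfb was not well above background in control on array 1, which limits its ratio there. In limma's test 0 of the 10 had an adjusted p under 0.05, and 4 had an unadjusted p under 0.05 (5.74% of all genes).

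Mrc1, the mannose receptor of scavenging macrophages, had the lowest p of the set. Its probe (chr2:14253273-14253332, mm9, plus strand) had log2 intensities of 9.56 in control and 9.16 in NOGGIN on array 1, and 9.96 and 9.33 on array 2. Control was higher on both arrays, by log2 ratios of -0.41 and -0.63 (mean -0.52 ± 0.16, SD, n = 2; 95% interval -0.95 to -0.08). In limma's test the unadjusted p was 0.0271 and the adjusted p was 0.727, so it did not pass over all probes. No single spot had NOGGIN above control: the 4 ratios on array 1 lay between -0.55 and -0.34 and the 4 on array 2 between -0.87 and -0.43. The spots of 1 array read the same pair of RNA samples, so they add nothing to the n of 2.

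**Figure D2:**
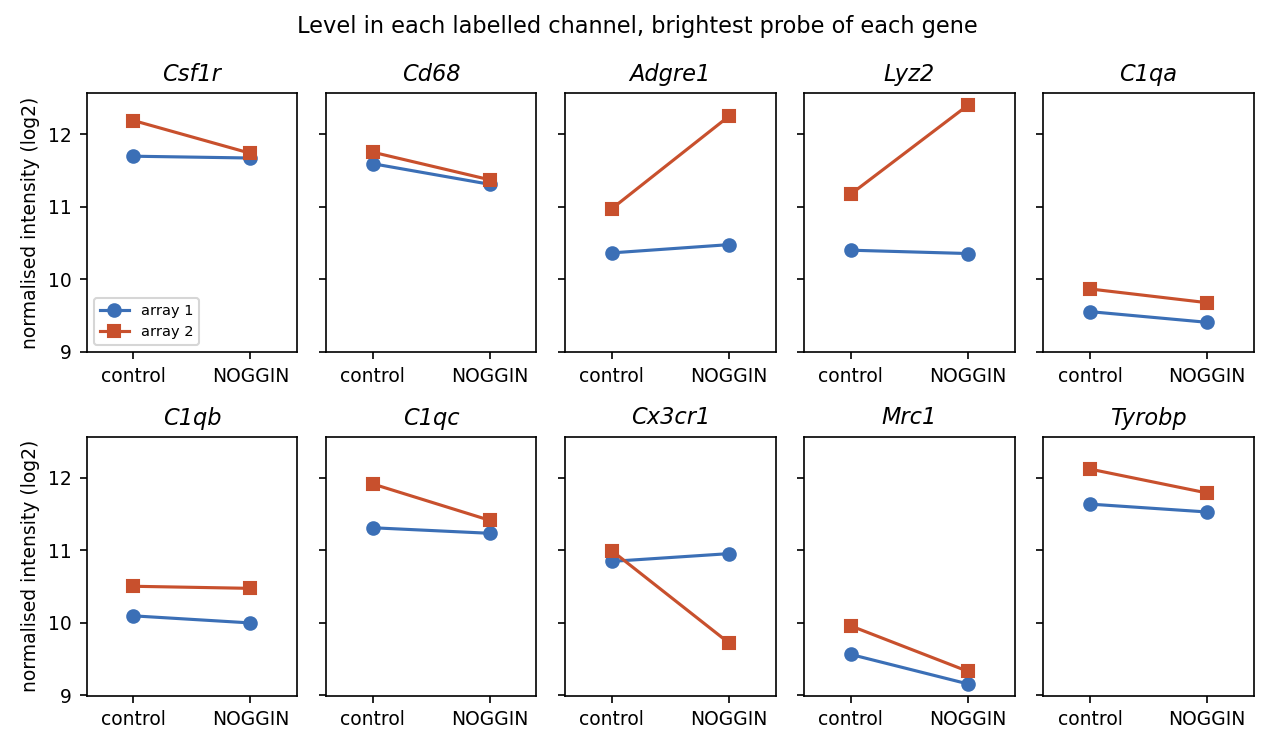
Normalised log2 intensity of the brightest probe of each gene in the channel labelled control and the channel labelled NOGGIN; circles are array 1, squares are array 2, and a line joins the channels of 1 array. Adgre1 and Lyz2 reach 12.25 and 12.40 in the channel labelled NOGGIN of array 2, and Cx3cr1 is at 9.73 there, while its other channels lie between 10.85 and 11.00.

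Adgre1, which encodes an adhesion receptor used as a surface marker of mouse macrophages, was level on array 1 and higher in NOGGIN on array 2. The brighter probe, starting at base 3160 (chr17:57622868-57622927, mm9, plus strand), had log2 intensities of 10.37 in control and 10.48 in NOGGIN on array 1, and 10.98 and 12.25 on array 2. Its log2 ratio was 0.11 on array 1 and 1.27 on array 2, the latter a 2.42-fold difference. The probe at base 2732, whose sequence is printed above, had -0.12 and 0.98, so both probes of the gene gave the same picture. Over both arrays the brighter probe had a mean of 0.69 ± 0.82 (SD, n = 2), with an unadjusted p of 0.0646 in limma's test and a 95% interval of -0.06 to 1.45.

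Lyz2, the lysozyme gene of macrophages and neutrophils, followed the same order. Its probe had log2 intensities of 10.40 in control and 10.36 in NOGGIN on array 1, and 11.18 and 12.40 on array 2. The log2 ratios were -0.05 and 1.23, and the spots of array 1 (-0.41 to 0.17) did not reach those of array 2 (0.97 to 1.56). The mean was 0.59 ± 0.90 (SD, n = 2), with a 95% interval of -0.21 to 1.39. Lyz2 has a close relative, Lyz1, whose transcript the probe may also read.

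Cx3cr1, the receptor for fractalkine, lay opposite to Adgre1 and Lyz2 on array 2. Its brightest probe, starting at base 3683, had log2 intensities of 10.85 in control and 10.96 in NOGGIN on array 1, and 11.00 and 9.73 on array 2. The log2 ratios were 0.11 and -1.27, a 2.41-fold lower signal in NOGGIN on array 2. The overlapping probe at base 3688 had 0.16 and -1.48, and the separate probe at base 2476 (chr9:119959018-119959077, mm9, minus strand) had -0.12 and -0.72. All 3 probes were therefore lower in NOGGIN on array 2 by more than 1.5-fold, though the separate one by less. On array 2, 0.496% of all kept probes had a lower ratio than the probe at base 3683. Its mean over both arrays was -0.58 ± 0.97 (SD, n = 2), with a 95% interval of -1.44 to 0.27. Fractalkine itself, Cx3cl1, had 0.17 on array 1 and -0.01 on array 2.

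**Figure D3:**
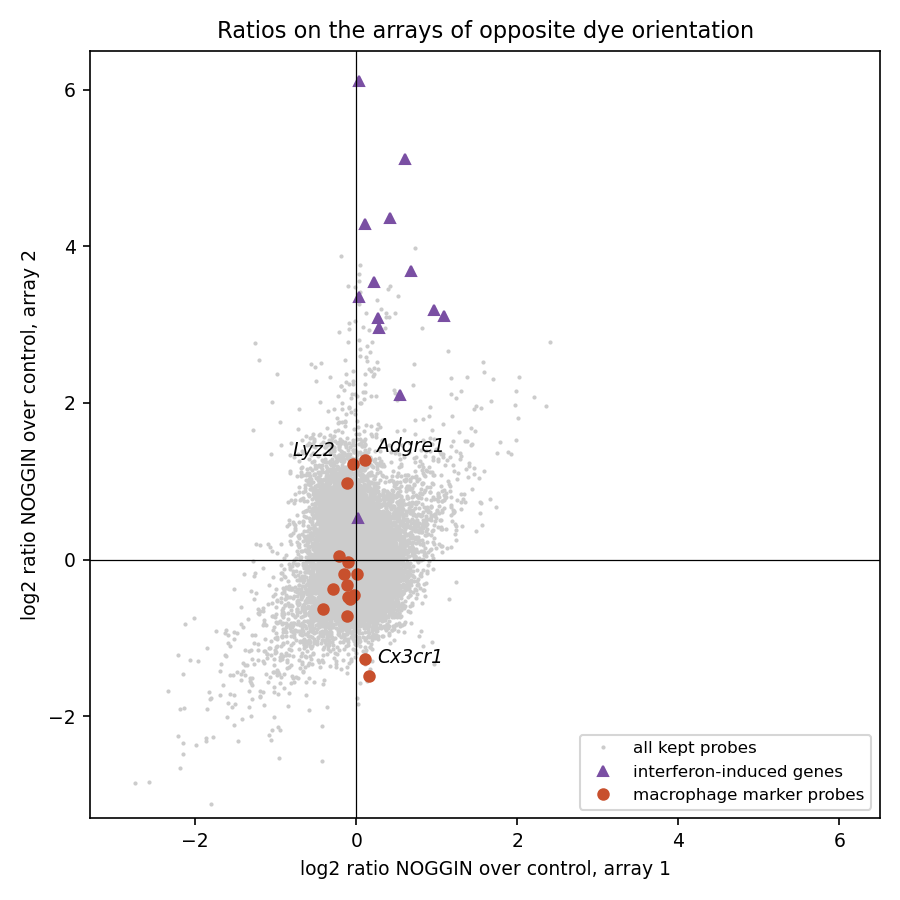
Log2 ratio on array 1 against that on array 2 for all 29645 kept probes (grey), the 16 macrophage marker probes (circles) and 13 interferon-induced genes (triangles). The markers spread along the array 2 axis from -1.48 to 1.27 while staying between -0.41 and 0.16 on array 1, and the interferon-induced genes reach 6.11 on array 2.

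Interferon-induced genes differed between the arrays in the same samples, and macrophages respond to interferon. All 13 genes of a list of such genes were kept, and each had a higher ratio on array 2 than on array 1. The median ratio was 0.29 on array 1 against 3.36 on array 2. By the 1.5-fold rule 4 were higher on both arrays (0.941% of all genes), with Ifit1 at 0.61 and 5.11, Oasl2 at 0.68 and 3.68 and Rtp4 at 1.10 and 3.12. Their summed normalised intensity was 4641 in control and 6817 in NOGGIN on array 1, and 13226 and 156165 on array 2. The summed intensity of the 10 macrophage markers was 19285 and 18188 on array 1, and 26228 and 26384 on array 2. The near-equal sums on array 2 join Adgre1 and Lyz2, which were higher in NOGGIN, with 8 genes that were lower. The part of the interferon-gene difference in the values of Adgre1, Lyz2 and Cx3cr1 was not tested.

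Among 30 other macrophage genes, 27 were kept; the scavenger receptor Cd163, the phosphatidylserine receptor Timd4 and the Fc receptor Fcgr1 were not. Of the 27, 0 passed the 1.5-fold rule on both arrays, and the median log2 ratio was -0.03 on array 1 and 0.06 on array 2. The leukocyte gene Ptprc (CD45) had -0.08 and 0.31. On array 1 none of the 27 reached 1.5-fold (4.31% of all genes did), and on array 2 4 were higher and 2 were lower (6.15% and 5.64% of all genes). The higher ones were the scavenger receptor Marco (-0.04 on array 1 and 2.41 on array 2), the oxidase subunit Cybb (-0.04 and 1.00), Cd52 (-0.02 and 0.97) and Ms4a7 (-0.26 and 0.73). Marco and Cybb were dim on array 1, with log2 intensities of 7.28 and 7.01 in control. The lower ones were Trem2 and Mertk, a receptor for the uptake of dying cells (0.01 and -0.66). On array 1 the 27 genes ran from -0.40 (Msr1) to 0.51 (Stab1). Lyve1, a receptor of perivascular macrophages and of lymphatic endothelium, was at a like ratio on both arrays, 0.44 and 0.54, with the lowest unadjusted p of the list, 0.029, and an adjusted p of 0.76 in limma's test.

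The mean level over both channels of an array is balanced for dye, because each array holds 1 red and 1 green sample. By this measure 9 of the 10 markers were brighter on array 2 than on array 1, as were 47.6% of all genes, and the median difference was 0.33 on the log2 scale against -0.01 over all genes. Lyz2 differed by 1.41, Adgre1 by 1.19 and C1qb by 0.44, and Cx3cr1 was the exception with -0.54. Of the other macrophage genes 24 of 27 were brighter on array 2, with a median difference of 0.32. Other lists were brighter on array 2 as well: all 13 interferon-induced genes (median difference 2.34), all 6 neutrophil genes (0.76), all 10 complement genes (0.65) and all 8 dendritic cell and monocyte genes (0.24). The red blood cell, endothelial and urothelial lists had median differences of 0.06, 0.02 and 0.01. There is 1 array of each kind, so this difference between the pairs of cultures has no replicate check.

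Fewer markers of lymphoid and mast cells were kept. For mast cells 2 of 6 genes were kept, for T and natural killer cells 3 of 5 and for B cells 3 of 4. In each of these lists 0 genes passed the 1.5-fold rule on both arrays, and the list medians over both arrays were 0.09, -0.13 and -0.03. For neutrophils, which also express Lyz2, 6 of 7 genes were kept and Ngp was not. The neutrophil genes had a median log2 ratio of 0.09 on array 1 and 0.93 on array 2. As for Lyz2, the ratio was higher on array 2 for 5 of the 6, and Mpo was the exception (0.36 and 0.28). In control on array 1, S100a8, Mpo and Camp were not well above background, which limits their ratios there. Ly6g passed the 1.5-fold rule with 0.82 and 1.14, but its adjusted p in limma's test was 0.26. The summed intensity of the 6 genes was 3524 in control and 3072 in NOGGIN on array 1, and 3987 and 8637 on array 2. Elane, a neutrophil protease gene with ratios of -0.46 and 1.20, made up most of these sums; without it they were 765 and 1067 on array 1, and 965 and 1701 on array 2. Their part in the Lyz2 value was not tested.

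Genes of urothelial, endothelial, red blood and mesenchymal cells were set beside the markers. Urothelial genes had medians of 0.25 on array 1 and -0.01 on array 2, endothelial genes 0.29 and 0.05, and red blood cell genes -0.02 and 0.05; 0 genes of these lists passed the 1.5-fold rule. Mesenchymal genes had medians of -0.51 and -0.18, with 4 of 5 below 0 on both arrays (23.3% of all genes), among them Acta2 (-1.39 and -0.18) and Col1a1 (-0.51 and -0.65). Of the 5 mesenchymal genes, Tbx18, a transcription factor of undifferentiated ureteric mesenchyme, was higher on both arrays (0.88 and 0.65). The smooth muscle gene Tagln was lower on both (-1.14 and -0.81; 1.25% of all genes passed in that direction). Their adjusted p values in limma's test were 0.37 and 0.26, so neither passed that test.

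**Figure D4:**
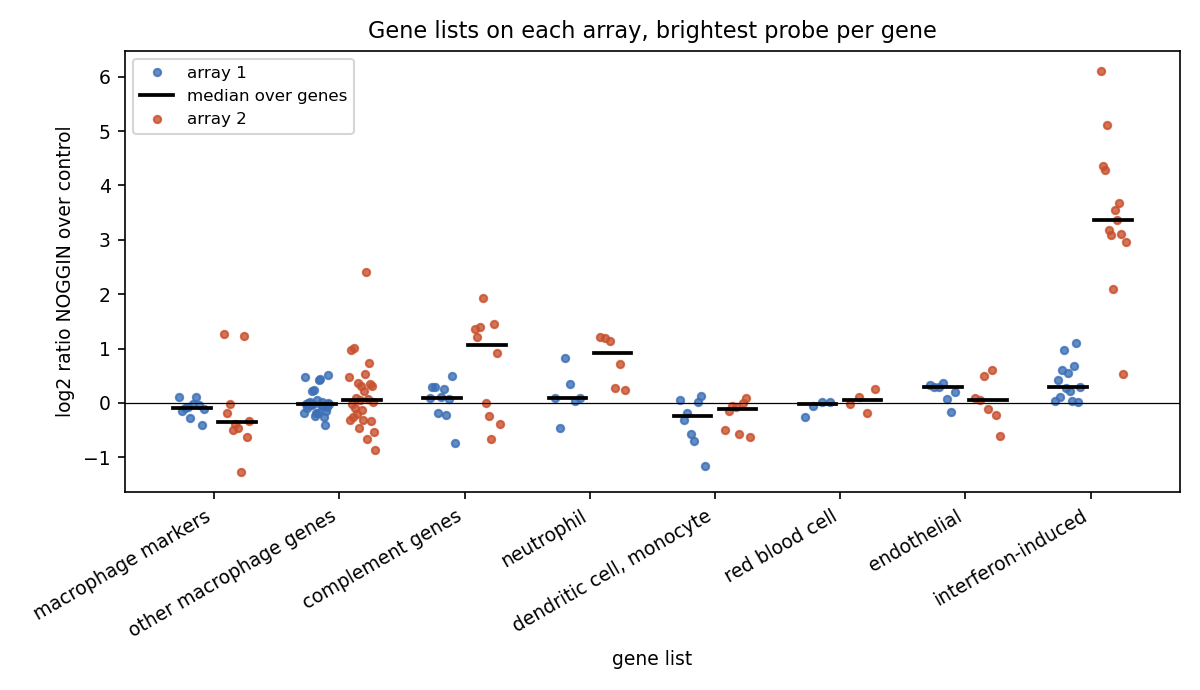
Log2 ratio of each kept gene (points, brightest probe) in 8 gene lists, with array 1 left and array 2 right in each pair; black bars are medians over genes. The macrophage marker medians are -0.09 and -0.36, and the interferon-induced medians are 0.29 and 3.36.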

How the data were processed

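Both arrays lay on 1 slide read in 1 scan. The deposited scanner files hold spot intensity values from Agilent Feature Extraction, release 10.7.3.1 according to the submitters' processing notes. The processed signals and the log10 ratio were made by that software, per the file headers; the log10 ratio was not used. A separate deposited table gives each probe a signed score with a median of 1 on both arrays and none between -1 and 1. Read as a signed fold and put on the log2 scale, this score correlated at -0.891 and -0.943 with the ratios used here; the sources used here do not give its normalization.

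Mean signals were corrected by normexp (offset 50) against local background medians and normalized by loess within arrays, giving controls a weight of 0 (limma version 3.58.1 under R 4.3.3). Outlier spots (3.36% and 3.09%) were left out, no spot was saturated, and each probe's 4 spots were averaged. Probes entered the fit if, on each array, over 0.5 of their spots exceeded background clearly in 1 channel or the other. Channel levels were taken after Aquantile scaling; the number of arrays limits the precision. Ratios were fitted with lmFit and eBayes per probe, with 1 residual and 4.38 prior degrees of freedom. In simulated ratios for 29645 probes, 88% of 100 probes changed by a log2 of 2, 3% of 100 changed by 1 and 0.0238% of 29445 unchanged probes passed an adjusted p of 0.05. The simulated ratios were drawn independently for each probe. In the data, Id1 and Id2, with mean log2 ratios of 2.14 and 2.59, had adjusted p values of 0.10 in limma's test and did not pass. The simulated shares may therefore overstate what the test finds in these data. Members and lists were chosen with earlier results of these data known. All members were named, with up to 3 genes per list past the 1.5-fold rule, Csf1, Il34, Cx3cl1, Spi1, Ptprc, Trem2 and the Id genes; others were chosen after their values were seen. Other lists covered transcription factors, complement, DAP12 partners and other cell types. Alternatives covered background, normalization, filter, spots, variance, thresholds, each array alone and the deposited score.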

Additional observations from a re-analysis of the deposited data

How the results depend on the processing

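The analysis was paired, with no unpaired alternative run: the fitted values are ratios within pairs of 1 control and 1 NOGGIN sample. Both arrays are on 1 slide, so no slide block was fitted. The count of 0 probes past the 1.5-fold rule was 0 in the 12 other settings on both arrays, and on single arrays it ran from 0 (array 1) to 7 (array 2). Some of these settings could give no other count. The 2-fold rule is stricter, and 1 probe per gene is a subset. The looser and the stricter filter kept the same member probes with the same ratios. The count past the adjusted p was 0 in all 13 alternatives run, of which 1 probe per gene could give no other count. Over all probes it was 0 as reported, but 156 with trend and robust variance, 131 under median centring, 90 where both channels had to exceed background and 70 for an offset of 10. A single array gives no test. Of 176 values of single probes under 11 alternatives, 0 turned sign, and the lowest adjusted p was 0.629. Under the looser and stricter filters and with trend and robust variance the ratios are those reported, so their signs could not turn. On single arrays 6 of 32 values turned sign, with ranges of -0.21 to 0.040 for the Csf1r probe at base 1841, -0.18 to 0.0059 for the Cd68 probe at base 443, -0.12 to 0.98 for the Adgre1 probe at base 2732, -0.046 to 1.23 for Lyz2, and -1.27 to 0.11 and -1.48 to 0.16 for the Cx3cr1 probes at bases 3683 and 3688. The marker median, -0.23, ran from -0.26 to -0.21 under other processing and from -0.36 to -0.09 on single arrays. Signal over background limits no member.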

Other observations

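Transcription factors of the myeloid lineage were all kept (8 of 8 genes), although most are also made by other ureter cells. Spi1 (PU.1), the factor most restricted to blood cells, had log2 ratios of -0.0018 on array 1 and 0.33 on array 2, and its signal was not well above background in the control channel of array 1. Maf had 0.74 and 0.73, above 1.5-fold on both arrays, but its other kept probe had a mean of 0.07. Runx1 had -0.58 and -0.54, with lower signal in NOGGIN each time, and its other kept probe had a mean of -0.20. In limma's test their adjusted p values were 0.37 for Maf and 0.61 for Runx1, so neither passed.

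Dendritic cell and monocyte genes lay mostly below control. Of 8 kept genes, 5 were below 0 on both arrays (23.3% of all genes were), with medians of -0.25 and -0.12. Itgax was above 0 on both (0.13 and 0.09), and 2 had opposite signs. Some were dim: H2-Aa was not well above background in NOGGIN on array 1. Ccr2 was not in control on array 1 or in NOGGIN on array 2. Plac8 had -1.16 and -0.62, beyond 1.5-fold on both arrays, and its other kept probe had a mean of -0.50. Its log2 intensities in control were 15.53 on array 1 and 15.51 on array 2. The next brightest gene of the list, H2-Eb1, was at 8.93 and 9.05. Which cells gave the Plac8 signal was not tested. The MHC class II gene H2-Ab1 had -0.70 and -0.57, whereas H2-Eb1, a brighter gene of that class, had 0.02 and -0.01. In limma's test the adjusted p values were 0.38 for Plac8 and 0.50 for H2-Ab1, so neither passed.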
